A study of Mus musculus with 12 samples.

Results

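The phagocyte NADPH oxidase is an enzyme of several subunits, and 5 of its genes (Cybb, Cyba, Ncf1, Ncf4 and Rac2) were followed through RNA sequencing of mouse B cells. The rows were taken by gene symbol, and all 5 symbols were present once in each deposited table, among 23973 genes for marrow cultures and 24015 for splenic cultures. The cells came from T58A mice, which carry a point mutation in MYC, and from wild-type (WT) littermates. T58A exchanges a threonine of MYC for alanine, and phosphorylation of that threonine normally lets a ubiquitin ligase bind MYC and send it for destruction. Marrow B cells, described by the series design as immature, were grown with IL7, the cytokine that sustains B cell precursors. Splenic B cells, described as mature, were grown with lipopolysaccharide (LPS), a bacterial product that makes mature B cells divide and secrete antibody. Both cultures lasted 48 h and held 3 T58A and 3 WT libraries, numbered as pairs in the sample titles. The age of the mice and the number of mutant Myc copies they carry are not given in the sources used here.

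Cybb (gp91phox) and Cyba (p22phox) form the flavocytochrome in the membrane, where Cybb passes electrons from NADPH to oxygen and makes superoxide. On activation the cytosolic organiser Ncf1 (p47phox) and Ncf4 (p40phox), which binds a phosphoinositide, move to the membrane together with a Rac GTPase. Rac2 is the form of Rac restricted to blood cells. The oxidase is best known for the respiratory burst of neutrophils and macrophages, and B cells also express it and make superoxide on stimulation. Loss of Cybb, Cyba, Ncf1 or Ncf4 in humans causes chronic granulomatous disease.

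The genes lie apart in the genome (GRCm38, GENCODE M21). Cybb is X-linked, at chrX:9435252-9487771. Cyba lies at chr8:122424776-122432930 and Ncf1 at chr5:134220053-134229625, all 3 on the minus strand. Ncf4, at chr15:78244801-78262580 on the plus strand, and Rac2, at chr15:78559167-78572783 on the minus strand, share a chromosome with 296586 bases between them. In Ncf1, 408 of 3663 exon bases overlap Gtf2ird2 on the opposite strand. Whether the counting used strand is not given in the sources used here, so reads from those bases could come from either gene.

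The promoters of Cybb, Ncf1 and Cyba are shown because these were the members for which a promoter window was available. The RefSeq promoter table (GRCm38.p6) matched 3 of the 5 members, with 250 bases before and 50 bases after the start, printed 5′ to 3′ on the gene's strand, here the minus strand. The windows are chrX:9469275-9469574 for Cybb, chr5:134229576-134229875 for Ncf1 and chr8:122432891-122433190 for Cyba. The Cybb window lies inside the GENCODE span given above, whose annotated end is further upstream than the RefSeq start used here. Capitals mark matches to any of 4 motifs searched on both strands.
Cybb: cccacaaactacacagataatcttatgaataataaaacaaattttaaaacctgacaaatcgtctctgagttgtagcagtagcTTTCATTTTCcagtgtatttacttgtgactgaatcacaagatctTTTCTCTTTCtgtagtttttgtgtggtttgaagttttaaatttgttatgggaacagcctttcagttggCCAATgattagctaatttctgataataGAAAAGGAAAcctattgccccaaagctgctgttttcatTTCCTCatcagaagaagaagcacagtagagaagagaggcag
Ncf1: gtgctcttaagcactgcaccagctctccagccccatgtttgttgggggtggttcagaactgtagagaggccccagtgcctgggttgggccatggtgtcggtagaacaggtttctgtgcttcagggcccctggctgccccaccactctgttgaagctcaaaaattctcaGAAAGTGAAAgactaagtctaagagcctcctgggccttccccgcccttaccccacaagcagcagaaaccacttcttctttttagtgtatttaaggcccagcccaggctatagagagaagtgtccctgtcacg
Cyba: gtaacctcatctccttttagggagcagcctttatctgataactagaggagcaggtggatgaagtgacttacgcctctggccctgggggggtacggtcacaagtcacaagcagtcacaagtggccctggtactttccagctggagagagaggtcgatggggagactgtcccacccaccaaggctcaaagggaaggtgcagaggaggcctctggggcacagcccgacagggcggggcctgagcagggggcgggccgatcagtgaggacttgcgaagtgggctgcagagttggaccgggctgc

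The PU box core GAGGAA was found in 28.3% of all 32851 windows of this table, the interferon response element GAAANNGAAA in 3.44%, the CCAAT box in 37.4% and the E-box CACGTG, which MYC-MAX dimers bind, in 7.15%. The Cybb window held the interferon element 3 times, with first bases 168, 124 and 29 bases before the start. It also held a CCAAT box 56 bases before the start and the PU box core, on the opposite strand, at base 10 after it. None of these matches overlapped another. The Ncf1 window held the interferon element once, 82 bases before the start. The Cyba window held none of the 4 motifs. A match describes letters in the window and not a bound site.

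Values below are normalised reads, the authors' read counts divided by 1 size factor per library. Depth was 8486753 to 10201113 assigned reads per library in IL7 cultures and 5110746 to 9332410 in LPS cultures, and each of the 5 genes had at least 256 reads in every library. Xist and Y-linked genes gave male for all 6 T58A libraries and for WT 3 of both cultures, and female for WT 1 and WT 2. Pairs 1 and 2 thus set a male T58A library against a female WT one, and pair 3 was of 1 sex. IL7 WT 2 stood apart: beside 23674 normalised reads of Xist it held 31.7 of Kdm5d and 58.9 of Eif2s3y, both Y-linked, and 611 of Igj, the joining chain of secreted antibodies, against 89.1 and 105 in WT 1 and WT 3. The IL7 results were therefore also computed without pair 2. Cd79a, a signalling chain of the B cell antigen receptor, had at least 4783 normalised reads in every library of both cultures. Myc, which carries the mutation, had 3038, 4397 and 4827 normalised reads in T58A IL7 cultures and 2010, 3204 and 3858 in WT IL7 cultures. It rose in T58A by 0.46 on the log2 scale (limma adjusted p = 0.00791 with the pair as a block; 0.0284 without pair 2).

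In IL7 cultures all 5 oxidase genes were lower in T58A than in WT within each of the 3 pairs. The difference was 2.16-fold for Ncf1, 2.09-fold for Cybb, 1.71-fold for Cyba, 1.33-fold for Ncf4 and 1.21-fold for Rac2. This comparison is how the genes were picked out. In the authors' deposited table the adjusted p for T58A against WT was 1.07e-13 for Ncf1, 3.04e-08 for Cybb, 1.55e-07 for Cyba, 0.0318 for Ncf4 and 0.0484 for Rac2. The IL7 differences of the 5 genes are given as a description. Because the genes were picked on this contrast, nothing is read from p-values or calls on it.

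Cybb, the catalytic subunit, had 500, 272 and 294 normalised reads in T58A 1, 2 and 3 and 1225, 706 and 423 in WT 1, 2 and 3. T58A 1 lay above WT 3, so the groups overlapped although each T58A library was below its own WT partner. On the log2(value + 1) scale the difference was -1.06 ± 0.15 (SE of the limma fit with the pair as a block, n = 3 pairs). It was -1.29, -1.37 and -0.52 in pairs 1, 2 and 3. Pair 3, in which both libraries were male, thus had the smallest difference. Without pair 2 the fitted difference was -0.91.

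Cyba, the partner that stabilises Cybb in the membrane, had 924, 730 and 578 normalised reads in T58A and 1888, 1014 and 1015 in WT. All T58A libraries lay below all WT libraries. The log2 difference was -0.77 ± 0.10, with -1.03, -0.47 and -0.81 in the 3 pairs and -0.92 without pair 2.

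Ncf1, the organiser whose phosphorylation starts assembly, had 625, 342 and 243 normalised reads in T58A and 1338, 839 and 470 in WT. In both genotypes library 1 was highest and library 3 lowest, and T58A 1 exceeded WT 3. The log2 difference was -1.11 ± 0.09, and the 3 pairs gave -1.10, -1.29 and -0.95. Without pair 2 it was -1.02.

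Ncf4 had 970, 925 and 871 normalised reads in T58A and 1756, 1049 and 994 in WT. The groups did not overlap, and WT 1 stood well above the other 5 libraries. The log2 difference was -0.41 ± 0.13 over all pairs and -0.52 without pair 2, but -0.19 without pair 1. Within the pairs it was -0.85, -0.18 and -0.19.

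Rac2 had 6052, 6365 and 6637 normalised reads in T58A and 8995, 6756 and 7479 in WT. The groups did not overlap, and pair 1 again differed most, at -0.57, against -0.09 and -0.17 in pairs 2 and 3. The log2 difference was -0.28 ± 0.09 over all pairs, -0.37 without pair 2 and -0.13 without pair 1.

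**Figure D1:**
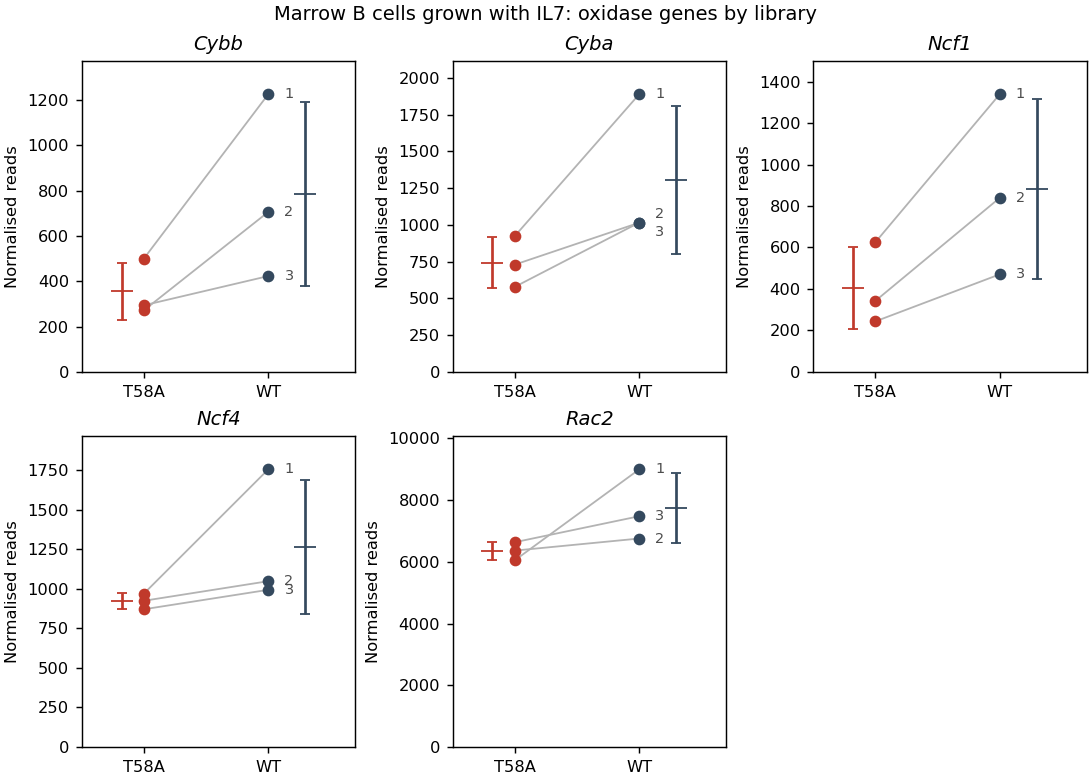
Normalised reads of the 5 oxidase genes in each marrow IL7 library (points), T58A left and WT right, with grey lines joining the libraries of a pair, pair numbers beside the WT points, and the mean ± SD beside each group. Every line for the 5 genes slopes up towards WT, and pair 1 is highest in both groups for Cybb, Cyba, Ncf1 and Ncf4.

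With the pair as a block, 3 of the 5 genes (Cybb, Cyba and Ncf1) passed an adjusted p under 0.05 as lower, where 6.31% of the 11604 tested genes did. All 5 were lower in T58A in every pair, as were 26.0% of tested genes. For Cyba, Ncf4 and Rac2 all T58A libraries lay below all WT libraries, a pattern of 10.8% of tested genes. Since the 5 genes were chosen on this contrast, nothing is read from these counts. Without the block no tested gene passed in either direction, with 1960 genes at an unadjusted p under 0.05. The male libraries alone, 3 T58A against WT 3 without a block, gave -0.33 for Ncf1, -0.31 for Cybb, -0.47 for Cyba, -0.11 for Ncf4 and -0.24 for Rac2. These values rest on a single WT library, and sex and genotype cannot be told apart in pairs 1 and 2.

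The spread between libraries of a genotype differed by gene. In IL7 cultures the highest WT library exceeded the lowest 2.90 times for Cybb and 2.85 times for Ncf1, against 1.86 for Cyba, 1.77 for Ncf4 and 1.33 for Rac2. Among T58A libraries the same ratio was 1.84 for Cybb, 2.57 for Ncf1, 1.60 for Cyba, 1.11 for Ncf4 and 1.10 for Rac2. Cybb and Ncf1 were thus the most variable of the 5 within both genotypes.

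Marrow cultures can hold myeloid cells, which express the same oxidase genes strongly, so their markers were read in the same libraries. The 19 myeloid markers summed to 988, 1164 and 522 normalised reads in T58A 1, 2 and 3 and to 1594, 834 and 2601 in WT 1, 2 and 3. Of the 15 markers tested none passed, and all 15 had a negative log2 difference, with a median of -1.10 against -0.01 over all tested genes. Without pair 2 the median was -1.73 and 8 of the 15 passed as lower. Over all tested genes that fit passed 431 as lower, against 732 of 11604 with all pairs. Among the 8 were the neutrophil genes S100a8, S100a9, Ngp, Ltf and Mpo. None of the 19 was at 0 in all IL7 libraries, and Cd14, a monocyte receptor, had at most 3 reads. Within pairs the log2 difference of the sum was -0.69, 0.48 and -2.32. In pair 2 the myeloid sum was higher in T58A, and the fit without pair 2 leaves this pair out. Ncf1 and Cybb showed their largest drop in that pair, while Cyba, Ncf4 and Rac2 showed their smallest (-0.47, -0.18 and -0.09). WT 3 had the highest myeloid sum of the 6 libraries. Among the WT libraries it had the lowest Ncf1, Cybb and Ncf4. Cyba was about level in WT 2 and WT 3 (1014 and 1015 normalised reads), and Rac2 was lowest in WT 2 (6756). Whether, and by how much, myeloid cells contributed to the oxidase differences was not tested.

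Of 9 B lineage markers, 5 fell in T58A IL7 cultures and none rose (limma with the pair as a block), where 6.31% of all tested genes fell. They were Ms4a1 (CD20), at -0.77, the antigen receptor signalling chains Cd79b and Cd79a, at -0.53 and -0.46, the inhibitory coreceptor Cd22, at -0.42, and Vpreb3, at -0.38. Their adjusted p-values ran from 0.00281 to 0.0363. None passed without the block, and without pair 2 all but Cd22 (-0.25, adjusted p = 0.152) passed. Over all tested genes 431 passed as lower without pair 2, against 732 of 11604 with all pairs. The 9 markers summed to 32919 to 38462 normalised reads in T58A and 38579 to 53687 in WT, and pair 1 differed most here too, at -0.48 against -0.28 and -0.23 in pairs 2 and 3. Fewer cells of a type and less RNA per cell cannot be told apart in these bulk samples, and the part of B cell composition in the oxidase differences was not tested.

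**Figure D2:**
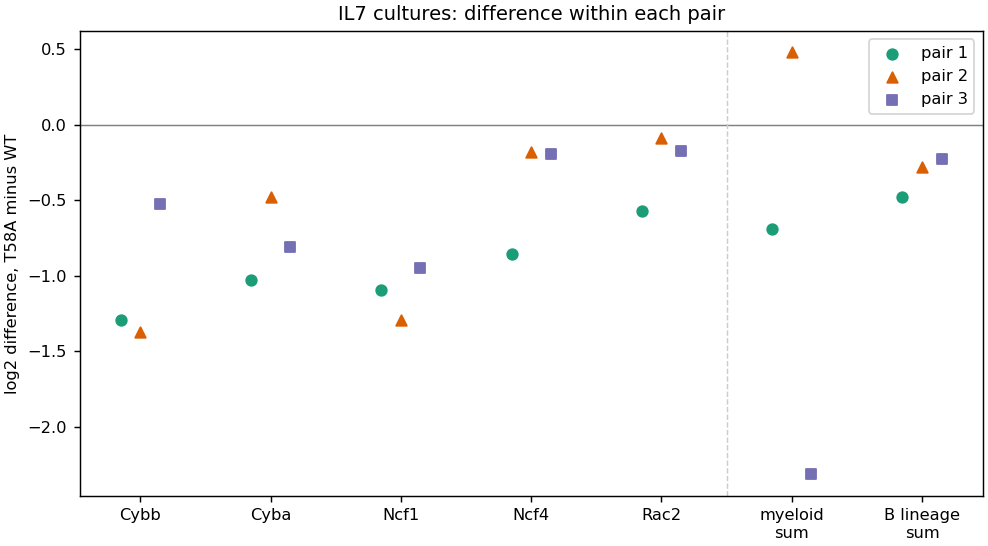
Difference between T58A and WT within each IL7 pair (log2, T58A minus WT) for the 5 oxidase genes, left of the dashed line, and for the sums of 19 myeloid and 9 B lineage markers, right of it; each symbol is 1 pair. The 5 genes are below 0 in all pairs, while the myeloid sum is 0.48 in pair 2 and -2.32 in pair 3.

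In LPS cultures, which share no library with the IL7 comparison, none of the 5 genes passed the test for T58A against WT. Limma without a block passed 0.0% of 11291 genes in either direction, with 284 at an unadjusted p under 0.05 and 1 gene passing in DESeq2, so the absence of a call was shared with every gene in that fit. The authors' deposited table, from a fit with pairs, gives 80 genes higher and 145 lower at an adjusted p under 0.05, and none of the 5 members, with 0.153 for Ncf1 as the smallest of theirs. A pair of T58A columns carries the same header and has no pair number, and these are given first and second below.

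Cybb had 6571, 6124 and 7425 normalised reads in T58A LPS cultures and 7564, 7122 and 7061 in WT. The log2 difference was -0.12 (95% interval -0.48 to 0.25), and the groups overlapped. Cyba had 1769, 1851 and 1665 in T58A and 1690, 1828 and 1673 in WT, a difference of 0.03 (-0.28 to 0.34). Its 6 libraries lay close together irrespective of genotype.

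Ncf1 had 4049, 5353 and 3449 normalised reads in T58A LPS cultures and 3096, 4417 and 3188 in WT. Its difference of 0.26 (-0.23 to 0.75) was the largest of the 5 genes in LPS cultures, and its groups overlapped. With the pairing under which the authors' deposited p-values were matched, T58A was higher in all 3 pairs, by 0.39, 0.28 and 0.11, and the block did not change the call (limma adjusted p = 0.197, with 0.0354% of genes passing).

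Ncf4 had 992, 906 and 1120 normalised reads in T58A LPS cultures and 1052, 905 and 989 in WT, a difference of 0.03 (-0.30 to 0.37). Rac2 had 7396, 7036 and 7154 in T58A and 7238, 8206 and 6948 in WT, a difference of -0.05 (-0.41 to 0.32). No member had all T58A libraries below or all above the WT libraries, patterns of 3.3% and 3.1% of tested genes. The adjusted p was 1.00 for each of the 5 members. The SE of these differences was 0.14 to 0.22 without a block and 0.08 to 0.10 with it, and no member passed with the block either.

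**Figure D3:**
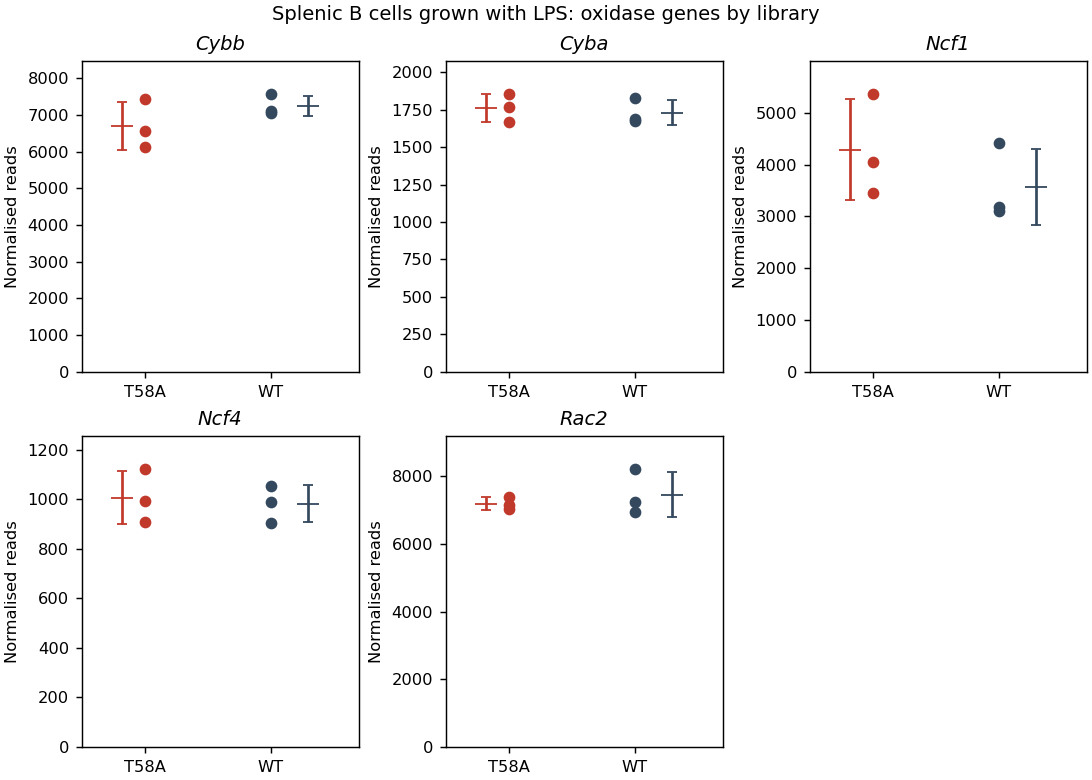
Normalised reads of the same 5 genes in each splenic LPS library (points), T58A left and WT right, with the mean ± SD beside each group. T58A and WT points overlap for every gene, with Ncf1 at 3449 to 5353 in T58A and 3096 to 4417 in WT.

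The T58A effect in IL7 minus that in LPS was -1.37 ± 0.51 for Ncf1, -0.95 ± 0.43 for Cybb, -0.80 ± 0.31 for Cyba, -0.44 ± 0.26 for Ncf4 and -0.23 ± 0.19 for Rac2 (log2, SE of the limma fit over 12 libraries). These values contain the IL7 contrast on which the genes were chosen, so they are a description and nothing is read from whether they pass. Over all 10767 genes tested in both cultures this difference passed for 0.0% without a block, with 479 at an unadjusted p under 0.05 and 4 passing in DESeq2. With the pair as a block within each culture it passed for 4.1%, and the SE of Ncf1 was then 0.12.

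**Figure D4:**
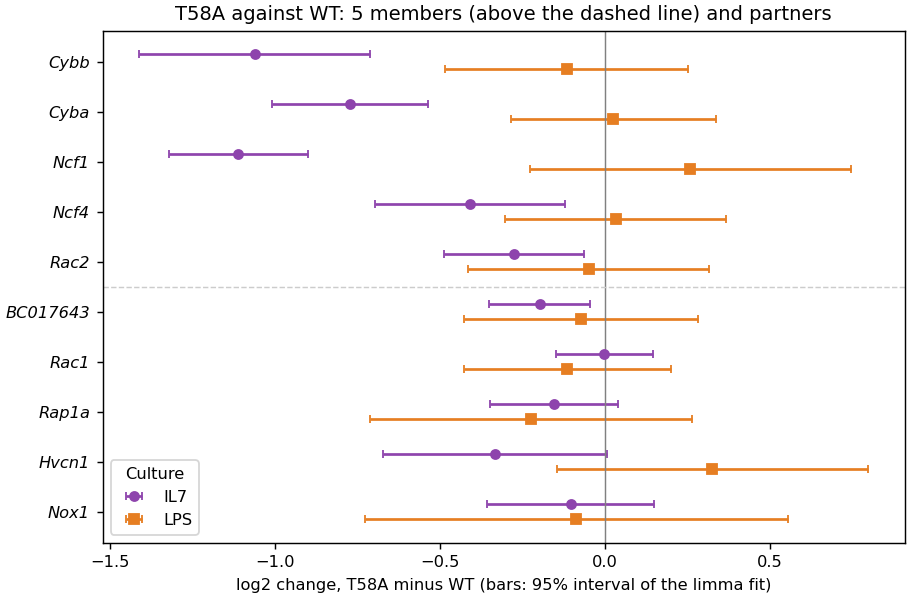
Log2 difference between T58A and WT with its 95% interval for the 5 members, above the dashed line, and 5 other oxidase genes, below it, in IL7 (circles, limma with the pair as a block) and LPS (squares, without a block). In IL7 the members, which were chosen on this contrast, run from -1.11 for Ncf1 to -0.28 for Rac2. In LPS every interval of the fit without a block includes 0. The block differs between the cultures, so the widths of the intervals cannot be compared. The LPS SE of Ncf1 was 0.22 as drawn and 0.09 with the block.

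Levels were compared between genes as RPKM, reads per kilobase of exon scaled to library depth, computed from the recovered reads. In IL7 cultures the order was the same in both genotypes. Rac2 was highest, at 217 ± 7.41 in T58A and 269 ± 39.7 in WT (SD, n = 3 each), followed by Cyba at 76.0 ± 18.6 in T58A and 135 ± 52.5 in WT. Ncf4 came next, at 48.4 ± 3.20 in T58A and 67.6 ± 22.8 in WT. Ncf1 had 11.7 ± 5.87 in T58A and 26.0 ± 12.9 in WT, and Cybb 6.50 ± 2.37 in T58A and 14.6 ± 7.58 in WT. Only Ncf1 and Cybb overlapped as neighbours in this order, in both genotypes.

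In LPS cultures Rac2 was again highest, at 342 ± 6.89 in T58A and 351 ± 38.5 in WT, and Cyba second, at 250 ± 16.2 in T58A and 243 ± 17.4 in WT. Cybb, at 170 ± 14.98 in T58A and 182 ± 4.65 in WT, and Ncf1, at 173 ± 41.5 in T58A and 142 ± 32.9 in WT, overlapped and changed places between the genotypes. Ncf4 had 73.4 ± 7.04 in T58A and 70.7 ± 3.64 in WT. The step from the IL7 to the LPS cultures was uneven across the complex. In WT cells the LPS level was 12.5 times the IL7 level for Cybb and 5.48 times for Ncf1, but 1.79 times for Cyba, 1.31 for Rac2 and 1.05 for Ncf4. In T58A cells the ratio was 26.2 for Cybb, 14.7 for Ncf1, 3.29 for Cyba, 1.58 for Rac2 and 1.52 for Ncf4.

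The catalytic subunit and the organiser were thus the lowest of the 5 members in marrow cells and had the greatest ratios to splenic cells. Tissue and stimulus differ together between the cultures, and the tables were normalised separately, so these ratios carry no test. In LPS libraries the neutrophil gene Elane was at 0, and Mpo, Prtn3, S100a8, S100a9, Ngp, Camp, Ltf and Csf3r had at most 3 reads. The myeloid sum there was 923, 885 and 1106 normalised reads in T58A and 1159, 899 and 1155 in WT, of which Itgam, an integrin that activated B cells can also express, made up 338 to 590 in T58A and 419 to 716 in WT. In IL7 libraries the sum ran from 522 to 1164 in T58A and from 834 to 2601 in WT. Whether myeloid cells contributed to the LPS levels of the oxidase genes was not tested.

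**Figure D5:**
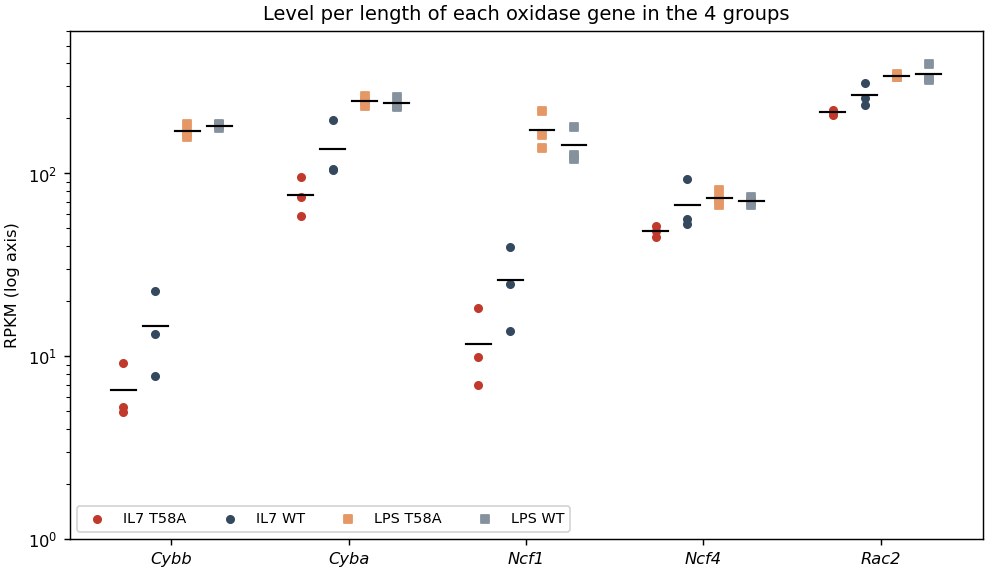
RPKM (log axis) of the 5 members in each library of the 4 groups (IL7 circles, LPS squares), with a black bar at each group's mean. Cybb lies at 4.98 to 22.8 in IL7 libraries and 158 to 187 in LPS libraries, while Ncf4 lies between 45.1 and 93.8 throughout.

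Other genes of the oxidase family gave no call in either culture. Both tables list 13 of those considered, of which 6 were tested in IL7 cultures. All 6 differences were negative, with a median of -0.15. Hvcn1, the proton channel that balances the charge moved by the oxidase, had 1075, 964 and 502 normalised reads in T58A IL7 cultures and 1980, 987 and 534 in WT, a difference of -0.33 ± 0.15 (limma with the pair as a block, adjusted p = 0.172). In LPS cultures Hvcn1 had 2770, 3654 and 2562 in T58A and 2221, 3026 and 1960 in WT, a difference of 0.33 (95% interval -0.15 to 0.80 without a block). With the pairing under which the authors' deposited p-values were matched, T58A was higher in every pair. The SE was then 0.08, and Hvcn1 did not pass (limma with that block, adjusted p = 0.109). BC017643 had a difference of -0.20 in IL7 cultures (adjusted p = 0.0853). Rac1, the form of Rac found in most cells, differed by -0.00 in IL7 cultures (95% interval -0.15 to 0.14), with 2846 to 3202 normalised reads in T58A and 2759 to 3417 in WT. Nox1, the catalytic subunit of a related oxidase, had 193, 197 and 202 normalised reads in T58A IL7 cultures and 201, 219 and 216 in WT, a difference of -0.10 (95% interval -0.36 to 0.15). The catalytic subunits Nox3 and Nox4 were at 0 in IL7 libraries, and Duox1 and Duox2 had at most 3 reads.

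Genes that act on Rac, phosphorylate subunits or control oxidase transcription were tested as lists in IL7 cultures, where 12.7% of all tested genes passed in either direction and 6.41% as higher. These lists were put together with earlier results of these data known. Of 12 genes that regulate Rac, 2 fell and none rose, where 6.31% of all tested genes fell. The 2 genes, Arhgap25 and Arhgap15, encode GTPase-activating proteins that switch Rac off, but nothing is read from what 2 genes share. Arhgap25 had 698, 564 and 568 normalised reads in T58A and 1143, 906 and 993 in WT, with no overlap, a difference of -0.73 ± 0.07 (limma with the pair as a block, adjusted p = 0.00265). Arhgap15 fell by 0.35 (adjusted p = 0.0298). The median of the list was -0.05, against -0.01 for all tested genes.

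Of 8 kinases that act on the subunits only Prkcb passed, a protein kinase C of B cells, with a difference of -0.27 (adjusted p = 0.0392). Of 9 tested transcription factors with known roles at oxidase promoters 2 fell and none rose, with a list median of -0.24. Spib, an ETS factor of B cells related to PU.1, fell by 0.41 (adjusted p = 0.0158) and Irf1, an interferon regulatory factor, by 0.32 (adjusted p = 0.0241). Spi1 (PU.1), which activates Cybb in myeloid cells, had 512, 514 and 414 normalised reads in T58A and 914, 522 and 411 in WT, a difference of -0.28 (adjusted p = 0.258). Irf8 differed by 0.05.

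Of 23 antioxidant enzymes and regulators 2 rose and 2 fell. Prdx6 rose by 0.33 (adjusted p = 0.0271) and Sod2, the mitochondrial superoxide dismutase, by 0.29 (adjusted p = 0.039). Cat (catalase) fell by 0.30 (adjusted p = 0.03) and Nqo1, a quinone reductase, by 0.82 (adjusted p = 0.0456), with at most 74.3 normalised reads in any library. Of 10 tested genes that supply NADPH, 2 rose and none fell: Tkt, transketolase, by 0.34 (adjusted p = 0.0129) and Me2, a mitochondrial malic enzyme, by 0.35 (adjusted p = 0.0135). The list medians were -0.01 and 0.18.

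No gene of these lists passed in IL7 cultures without the block, and none passed in LPS cultures. Without pair 2, 2 of the Rac regulators passed as lower, and no kinase, transcription factor, antioxidant or NADPH gene passed. Over all tested genes that fit passed 344 as higher and 431 as lower, fewer than with all pairs.

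For each member the genes with the most similar pattern were found as the smallest root mean square distance over 12 libraries, each gene centred within each culture on the log2 scale. The distance of Cyba was 0.09 to Nfkbia, the NF-kB inhibitor, 0.11 to Gucd1 and 0.11 to Card6. Cybb lay 0.13 from Il21r, the IL21 receptor, 0.13 from H2-Eb2, an MHC class II gene, and 0.14 from Shisa5. Ncf1 lay 0.17 from H2-DMa and 0.19 from H2-Ob, which encode chains of the class II peptide-loading machinery, and 0.19 from Bcl3, an IkB family member. Ncf4 was nearest to Rftn1 (0.06), Atp6v0b (0.08) and Arhgap27os3 (0.09), and Rac2 to Ptpn1 (0.06), Zfand2b (0.06). Among 8665 candidates Cyba ranked 45th from Cybb, Ncf1 131st, Ncf4 218th and Rac2 1109th. The IL7 contrast on which the members were chosen enters these distances, so nothing is read from the ranks. All distances share the same 12 libraries, and no test was made of them.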

How the data were processed

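RNA of 12 cultures was sequenced. Per the submitters' processing notes the tools were bcl2fastq 1.8.4, TopHat2 2.1.0, HTSeq 0.6.1 and DESeq2, with build mm10. For each culture the authors deposited a normalised signal for every gene in every library, together with their own log2 fold changes, p-values and adjusted p-values. Each signal is a whole number of reads over a size factor: within 0.001, 100% of values were whole. Raw counts had been foreseen, so the test for normalised values was used.

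Low genes were removed by filterByExpr (edgeR 4.0.16; at least 10 reads, 15 in total, on recovered reads). The rest were tested with limma 3.58.1 (trend) in R 4.3.3 on log2(value + 1), at a Benjamini-Hochberg adjusted p under 0.05 over all tested genes. Such fold changes understate low genes. The members and lists were chosen with earlier results of these data known. The named genes were the members, of each list up to 4 called genes per direction by smallest p or else the 2 with the smallest p, and the 3 nearest genes per member. Igj, Cd14, Itgam, Rac1, Spi1 and Irf8 were named after their values were seen. A few genes of these lists were left out of the report.

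The IL7 fit had the pair as a block. The titles name pairs, and same-numbered libraries deviated together (r = 0.41, 0.15 and 0.40). DESeq2 1.42.0 with that block gave 98.7% of the authors' deposited IL7 p-values within 1%, and 99.7% of the LPS ones with the first unnumbered column paired with WT 1. The LPS and difference fits had no block, because the headers leave a pair of LPS columns without a number. Under that pairing the LPS libraries also deviated together (r = 0.34, 0.66 and 0.54), so fits without a block overstate the error where it holds. Alternatives were other scalings, filters, pseudocounts of 0.5 and 5, edgeR and DESeq2 on recovered reads, the block, male libraries and leaving out each library or pair 2. The labels name no animal per library, so p-values measure the spread between these samples, which may be technical in part. A count of 0 allows up to 3 reads, for counting error only. Symbols were matched to GENCODE M21 for 94.6% of 24015 genes. Procedures were tested on simulated data. Figures were drawn with matplotlib 3.10.9.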

Additional observations from a re-analysis of the deposited data

How the results depend on the processing

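Because the 5 members were chosen on the IL7 contrast, their counts here are a description and say nothing of stability. Of 17 alternatives, DESeq2 passed 5 members as lower, the fit with no replicate block and the male libraries 0, and the others 3. Over all genes, IL7 calls were 744 higher and 732 lower with the replicate block, 0 in each direction without it, 344 higher and 431 lower without pair 2, 486 higher in DESeq2, and 1 higher and 1 lower in the male libraries. Leaving out single IL7 libraries gave 321 to 682 higher and 417 to 769 lower, with 3 members lower each time. With the block, leaving out either library of a pair gave the members the same log2 differences. The fits without either library of a pair are therefore not separate checks. LPS calls, 0 in each direction, were 1 higher in DESeq2, 2 higher and 2 lower with the replicate block, 5 higher in the male libraries, and 0 to 4 higher and 0 to 2 lower without single libraries. LPS differences near 0 changed sign: without single libraries Ncf4 ran from -0.048 to 0.10 (0.083 without WT 1) and Rac2 from -0.10 to 0.021, Cyba was -0.011 without the second unnumbered column, and Rac2 was 0.050 in the male libraries. The difference between cultures passed for 0 genes, for 4 lower in DESeq2, for 97 higher and 344 lower (3 members, by the contrast that chose them, among these) with the replicate block, and for 0 to 3 lower without single libraries. For the fits with a block, fewer samples and other tools the cause was not tested.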

Other observations

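Markers of further cell types were read beside the oxidase genes. Of 6 T and natural killer cell markers, 2 were tested in IL7 cultures, and 1 rose and 1 fell. Cd3d, Cd3e, Cd3g and Nkg7 were too low to be tested. Over all tested genes in IL7 cultures 6.41% passed as higher and 6.31% as lower. Thy1, a surface protein of T cells, rose by 0.56 in T58A (limma with the pair as a block, adjusted p = 0.0431), with 766, 1101 and 990 normalised reads in T58A and 386, 717 and 946 in WT. Il2rb, the IL2 receptor beta chain, fell by 1.28 (adjusted p = 0.0338), with 9.68 to 12.4 normalised reads in T58A and 26.4 to 30.8 in WT. Itga2b, a platelet integrin chain, fell by 1.05 (adjusted p = 0.0496), with 14.0 to 22.8 in T58A and 23.2 to 67.2 in WT. No dendritic cell marker passed. Without pair 2 none of Thy1, Il2rb and Itga2b passed (0.53, -1.24 and -1.10, adjusted p from 0.106 to 0.110).

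Of 6 plasmablast genes, Sdc1 (CD138) rose by 0.47 in T58A IL7 cultures (adjusted p = 0.0154), and Igj fell by 2.05 (adjusted p = 0.0417), with 611 normalised reads in WT 2 against 89.1 and 105 in WT 1 and WT 3. Without pair 2 Igj differed by -1.16 and did not pass (adjusted p = 0.117), and Sdc1 differed by 0.49 (adjusted p = 0.0492). In LPS cultures all 6 plasmablast genes had a negative difference and none passed. Irf4, which drives antibody-secreting cells, had 4323, 5041 and 6888 normalised reads in T58A LPS cultures and 7323, 6852 and 8607 in WT. Xbp1, a secretory pathway regulator, had 5432, 3388 and 10336 in T58A and 9955, 5514 and 13245 in WT. T58A and WT libraries overlapped for Irf4 and Xbp1, as they did for Cybb and Ncf1 in LPS cultures.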
